A study of Mus musculus with 120 samples.

Results

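The 10 microRNA genes described here, Mir127, Mir434, Mir136, Mir379, Mir411, Mir376a, Mir300, Mir382, Mir541 and Mir409, belong to the imprinted Dlk1-Dio3 domain of mouse chromosome 12. They were taken by name from the microRNA rows of the tables, where they are 10 of 1123 microRNA genes, and 49 further microRNA rows of the same domain were kept for comparison. Small RNA libraries from mouse sperm, sperm precursors, epididymis and testis were compared, 114 of them as reads per gene and 6 as substitution rates after 4-thiouracil labelling. All mice were fed a control diet and were 8 to 12 weeks old, and the titles of 6 of the 7 cauda sperm libraries of the maturation series give 9 weeks (3 libraries) or 12 weeks (3 libraries). RNA shorter than 40 nt was cut from a gel before cloning. The labels name no strain or genotype beyond the letters FVBTA (set 1) or FVBCDIET (sets 2 to 5) in the titles of the wash libraries, and they do not say which replicates came from separate animals, so p-values measure the spread between these libraries, which may be technical.

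The groups were as follows. Cauda sperm, the sperm stored at the end of the epididymis, were left unwashed or were washed with 0.01% SDS and 0.005% Triton-X (low wash), 0.1% SDS and 0.005% Triton-X (mid wash) or 0.1% SDS and 0.5% Triton-X (high wash), with 5 libraries each in 5 sets. In set 4 the title of the library used as high wash says mid, while its wash label gives the high wash. Heads, tails and whole sperm were taken from the cauda after a hypotonic or a detergent wash (3, 4 and 6 libraries) and from the testis after the detergent wash (3, 2 and 2 libraries). RNA of cauda epididymis and of testis was treated with polynucleotide kinase, with a kinase lacking its 3′ phosphatase, with the demethylase AlkB or with the pyrophosphohydrolase RppH, or was left untreated, with 4 libraries each. Each set of 4 held 2 libraries marked acid and 2 marked base, words the labels do not explain, under only 2 title numbers, so that 4 separate samples are not shown. RNA of cauda sperm and of caput sperm was treated with the kinase or left without it, with 3 libraries each. A maturation series held 3 libraries of cauda epididymosomes, vesicles shed by the epididymal epithelium, 1 library each of primary spermatocytes, early round spermatids and late round spermatids, 4 of testicular sperm, 1 of caput sperm and 7 of cauda sperm. Within the testicular sperm group the library names differ, with words such as NaCl, somatic and fusion untreated. These words are not explained, so this group may mix preparations. Testicular sperm fused with caput epididymosomes were compared with mock-fused testicular sperm, with 2 libraries each. Mice given 4-thiouracil (4-TU) and control mice gave 1 library each of caput epididymis, cauda sperm and testis. The titles of these libraries mark testis as neg, caput as pos and cauda sperm as test. The labels do not name the transgene, if any, that let cells take up 4-TU.

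Imprinted genes are read from only the maternal or only the paternal chromosome. In the Dlk1-Dio3 domain the protein-coding genes Dlk1, Rtl1 and Dio3 are read from the paternal chromosome, whereas the long non-coding RNAs Meg3, Rian and Mirg and the microRNAs, which are cut from such long transcripts, are read from the maternal one. The microRNAs are known for their abundance in placenta, embryo and brain. MicroRNAs lower the output of messenger RNAs that pair with their seed, and sperm gain part of their microRNAs from epididymosomes while they pass through the epididymis.

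The 10 hairpins lie on the plus strand within chr12:109592846-109743236 (GRCm38.p6, RefSeq). Mir127, Mir434 and Mir136 lie opposite an exon of Rtl1, where the transcript is antisense to the Rtl1 messenger. Mir379, Mir411, Mir376a and Mir300 overlap no named gene of the annotation, Mir382 lies in an exon of Mirg, and Mir541 and Mir409 lie in introns of Mirg at the far end. The arm of each hairpin that the substitution tables list is printed here from RefSeq, in the order of the genes along the chromosome and with the seed (bases 2 to 8) in capitals, because their substitution rates follow; the levels are those of whole hairpins.
miR-127-3p: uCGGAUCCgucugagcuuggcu
miR-434-3p: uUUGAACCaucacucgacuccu
miR-136-5p: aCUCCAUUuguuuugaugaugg
miR-379-5p: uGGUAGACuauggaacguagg
miR-411-5p: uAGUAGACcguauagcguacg
miR-376a-3p: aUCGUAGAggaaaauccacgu
miR-300-3p: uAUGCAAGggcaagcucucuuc
miR-382-5p: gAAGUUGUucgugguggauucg
miR-541-5p: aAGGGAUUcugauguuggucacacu
miR-409-3p: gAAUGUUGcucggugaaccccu

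These 10 seeds all differ from each other. The opposite arms of Mir379 and Mir411, shown next because they share a seed, differ at 1 of their first 18 bases.
miR-379-3p: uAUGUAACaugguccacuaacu
miR-411-3p: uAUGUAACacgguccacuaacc

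The gene tables count reads per hairpin and do not separate arms. Over the first 18 bases, miR-300-3p differs at 1 base from miR-381-3p and miR-376a-3p at 2 bases from miR-376b-3p, so the counting could split reads among these genes. Mir136 shares its bases with Mir3071, which is annotated on the opposite strand. The reads of Mir3071 divided by those of Mir136 came to 0.977 in the wash table, 1.02 in the epididymis table and 1.05 in the maturation table. The ratio was 1.01 in the table of heads and tails, 1.13 in the fusion table, 0.857 in the testis table and 0.697 in the sperm kinase table, the last on 23 and 33 reads. In single libraries, compared from 20 reads up, it lay between 0.565 and 1.70. Counting is not stated to use strand, so Mir136 and Mir3071 cannot be told apart here. The order of Mir379 and Mir411 also differs between the kinds of file: in the control caput library miR-379-5p had 2919 reads and miR-411-5p 550, whereas in the gene tables Mir411 was far above Mir379, for example at 822 and 12.8 CPM on average in untreated epididymis. The part of each arm in the hairpin counts was not tested, and levels of these 2 genes are compared only between groups.

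The total reads per library ranged between 156347 and 56011165, and levels are given as CPM (counts-per-million, the reads of a gene scaled to the total of its library). The 10 microRNAs together reached 1930 CPM in untreated cauda epididymis (lowest 1560 and highest 2152 CPM of 4 libraries), 544 CPM in cauda epididymosomes and 20.6, 17.03 and 19.6 CPM in the single libraries of primary spermatocytes, early round spermatids and late round spermatids. Share of reads and cell make-up cannot be separated in such bulk RNA: fewer cells of a type and less RNA per cell cannot be told apart. The labelled tissues carried their own markers, since the summed germ cell microRNAs (9 rows, such as Mir34c and Mir741) were at 1941 to 2454 CPM in untreated epididymis against 16219 to 18802 CPM in untreated testis, and the 5 epithelial microRNAs of the Mir200 and Mir141 group at 18009 to 25623 CPM in untreated epididymis against 36.96 to 148 CPM in untreated testis. In the maturation series the 5 blood cell microRNAs, such as Mir451a, were at 24.2 to 78.7 CPM in cauda sperm against 5137 to 102900 CPM in testicular sperm. The microRNA share of all reads ranged between 4.04% and 30.7% in testicular sperm, the highest being replicate 1.

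All 10 microRNAs were higher in cauda epididymis than in testis tissue, and Mir409 was the one with the smallest difference. Mir411, the most abundant, was at 666, 805, 897 and 921 CPM in the epididymis libraries and at 29.3, 27.3, 38.2 and 45.9 CPM in the testis libraries. Mir434 was at 480, 596, 670 and 592 CPM in epididymis and at 14.9, 20.8, 23.6 and 24.97 CPM in testis. Mir409 was at 24.1, 31.3, 24.1 and 23.2 CPM in epididymis and at 7.16, 6.36, 8.39 and 5.58 CPM in testis. The libraries of the 2 tissues did not overlap for any of the 10, as for 45.4% of all rows tested and 72.8% of the microRNA rows, in the same direction.

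The fold change of epididymis over testis had a log2 value of 4.09 for Mir411 (SE 0.24, adjusted p = 9.0e-08), and was 20.3 for Mir434 (log2 4.34 ± 0.23, adjusted p = 3.5e-08), 8.40 for Mir541 (log2 3.07 ± 0.23, adjusted p = 5.1e-07) and 2.73 for Mir409 (log2 1.45 ± 0.15, adjusted p = 7.8e-06), by the quasi-likelihood test of edgeR, with p-values adjusted over every row tested. The other 6 had fold changes between 12.7 for Mir136 and 36.3 for Mir376a. The background was high, since 95.6% of all rows tested were called in either direction and 69% of the microRNA rows were called higher, so the count of 10 of 10 says little about these genes. Their median log2 fold change was 4.12, against 2.01 for all microRNA rows and -1.08 for all rows. Of the other microRNAs of the domain, 26 of 26 tested were higher, with a median of 3.98. When the fit was made on the microRNA rows alone, Mir409 turned to a log2 value of -0.20.

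In the 3 germ cell libraries of the maturation series, those of spermatocytes and spermatids, Mir541 and Mir409 stood apart by level. Both were above 4 CPM there, whereas the other 8 were at or under 2.96 CPM. Mir541 and Mir409 were also lower in cauda sperm than in testicular sperm, as were most microRNA rows, so that fall does not set them apart. Mir541 was at 9.91 CPM in primary spermatocytes, 9.09 CPM in early round spermatids and 8.26 CPM in late round spermatids. In testicular sperm it was at 13.2, 20.8, 24.4 and 16.2 CPM, in the caput sperm library at 12.9 CPM, and in the 7 cauda sperm libraries between 1.27 and 6.71 CPM with a median of 3.78 CPM. The 3 cauda sperm libraries of 9 weeks lay between 1.92 and 4.21 CPM, within the 1.27 to 6.71 CPM of those of 12 weeks. The testicular sperm and cauda sperm libraries did not overlap for Mir541.

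Mir409 was at 8.16, 4.43 and 5.05 CPM in the same 3 germ cell libraries. It was at 4.34, 6.72, 3.15 and 5.56 CPM in testicular sperm, at 0.897 CPM in caput sperm and between 0.300 and 1.68 CPM in cauda sperm, with a median of 0.667 CPM. All cauda sperm libraries were below all testicular sperm libraries for Mir409 as well. The share of all rows that did the same was not computed, so the lack of overlap for Mir541 and Mir409 is a description only.

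Mir411, in contrast, was at 0.946, 1.55 and 2.96 CPM in the 3 germ cell libraries. It was at 11.4, 2.87, 6.99 and 1.68 CPM in testicular sperm, at 46.6 CPM in caput sperm and between 0.419 and 13.02 CPM in cauda sperm, with a median of 3.36 CPM. The testicular and cauda sperm libraries overlapped throughout this range, and the single caput sperm library was above all of them. Mir376a and Mir382 had no read in the primary spermatocyte and early round spermatid libraries, where 3 reads would be 0.135 and 0.173 CPM.

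**Figure D1:**
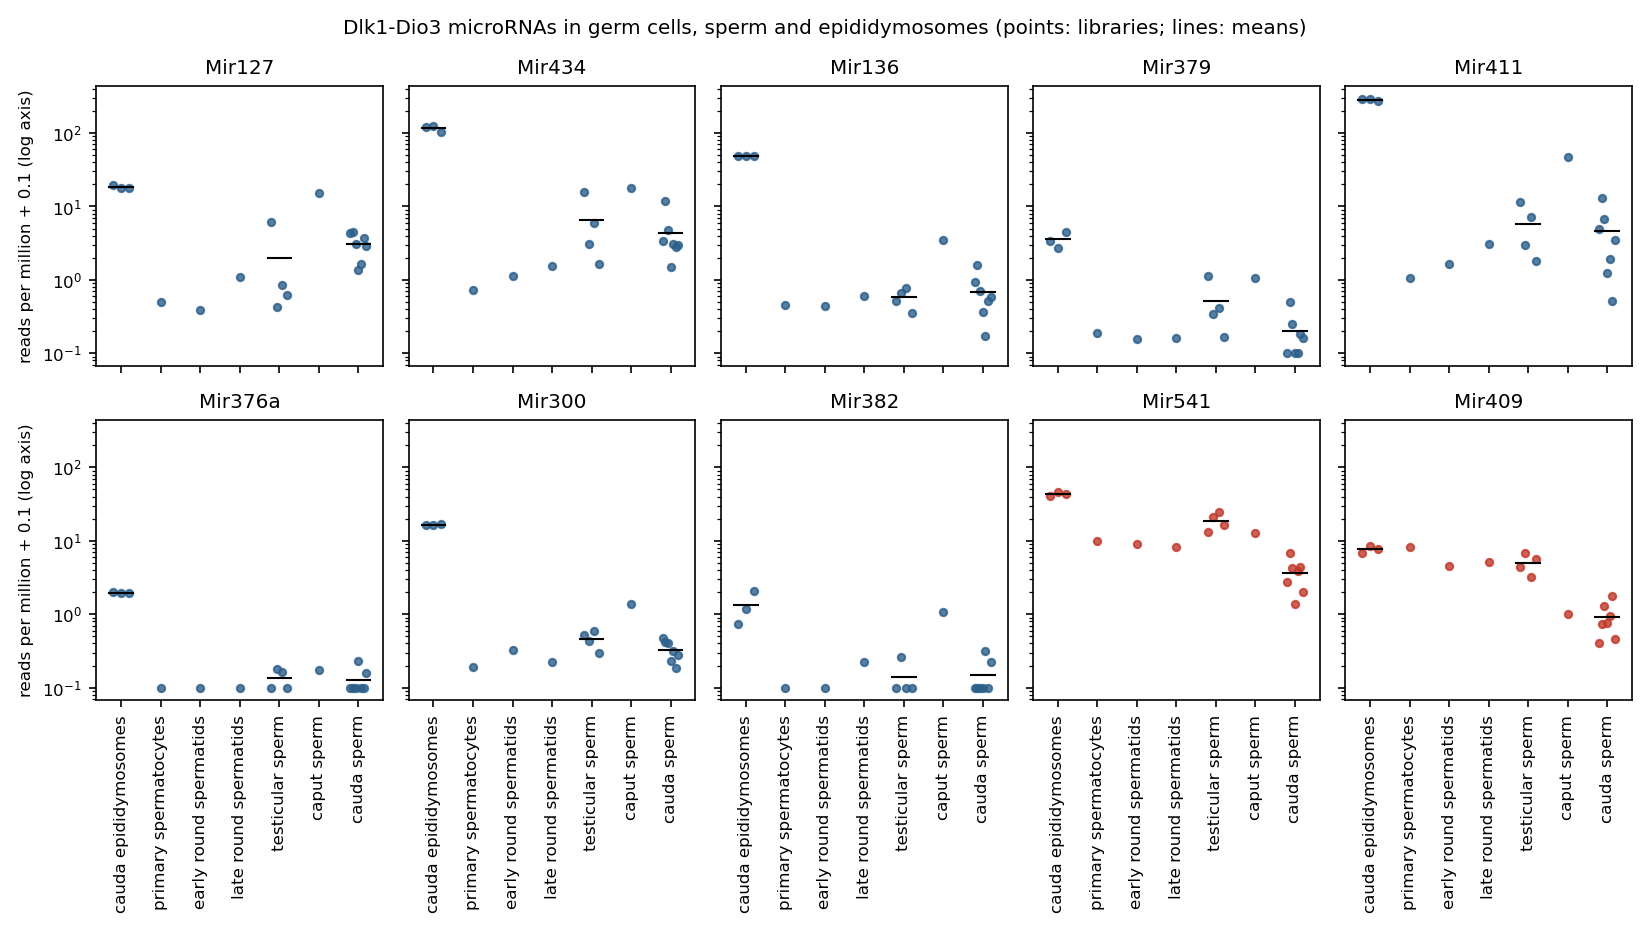
Level in CPM of each of the 10 microRNAs (plus 0.1, log axis) in every library of the maturation series, in chromosome order of the genes; points are libraries and lines are group means where a group has more than 1 library. Mir541 and Mir409 (red) sit at 8.26 to 9.91 and 4.43 to 8.16 CPM in the 3 germ cell libraries, while the other 8 (blue) are at or under 2.96 CPM there.

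In cauda sperm set against testicular sperm, 2 of 10 members fell and 1 rose, while 56% of all rows were called in either direction, and 61.8% of the microRNA rows fell and 5.68% rose. Mir541 fell by 2.17 on the log2 scale (SE 0.37, adjusted p = 1.0e-06, edgeR) and Mir409 fell by 2.21 (SE 0.43, adjusted p = 1.3e-05). Mir127 was at 1.27 to 4.42 CPM in cauda sperm and at 5.99, 0.328, 0.742 and 0.518 CPM in testicular sperm, so that testicular sperm replicate 1 was above every cauda sperm library and the other three were below them. It rose with a log2 value of 1.53 (SE 0.49, adjusted p = 0.0071). Among the libraries whose titles hold the same number (6 of cauda sperm and 2 of testicular sperm; the labels do not explain the number), Mir127 was called with a log2 value of 2.90, Mir541 with -2.20 and Mir409 with -2.50. The testicular sperm libraries may differ in preparation, and the part of preparation in these calls was not tested.

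The calls depended on the scale. On the microRNA rows alone, 5 members were called, all higher in cauda sperm, among them Mir411 with 1.86, Mir434 with 1.75 and Mir300 with 1.52, and Mir541 and Mir409 were not called. MicroRNA reads made up 0.501% to 2.56% of cauda sperm libraries against 4.04% to 30.7% of testicular sperm libraries, and the median log2 change of all microRNA rows was -1.82. With another scaling (relative log expression), 4583 rows rose and 2762 fell, against 3646 and 3383 with the main scaling.

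The share of Mir541 and Mir409 in the summed reads of the 10 microRNAs describes the same values without scaling between libraries, and since the 2 genes were singled out by their levels in these libraries it adds no support. In cauda epididymosomes these 2 genes held 9.42% ± 0.61 of the member reads (SD, n = 3). They held 87.7% in primary spermatocytes (exact binomial 95% interval 84.4% to 90.6%, which covers counting error only), 79.4% in early round spermatids, 68.1% in late round spermatids, 65.0% ± 22.5 in testicular sperm (n = 4), 13.8% in caput sperm and 28.2% ± 11.1 in cauda sperm (n = 7). Testicular sperm replicate 1 was the low library of its group at 33.5%, and the other three were between 64.5% and 83.6%. The cauda sperm libraries, between 17.6% and 45.3%, overlapped with the testicular sperm libraries at replicate 1. The part of preparation in the spread of the testicular sperm libraries was not tested. In the table of heads, tails and whole sperm the share was 48.6% in cauda heads against 45.2% in testicular heads and 41.5% in cauda tails against 38.2% in testicular tails. Whole cauda sperm lay between 19.3% and 47.3%, around the 38.5% and 41.6% of whole testicular sperm. These cauda groups mix the hypotonic and the detergent wash, while the testicular groups had only the detergent wash. The detergent-washed cauda libraries were at 23.6% (head), 42.0% (tail) and 19.3% and 26.7% (whole sperm). Testicular heads lay between 37.6% and 56.5%, and testicular tails were at 34.4% and 42.0%. In tissue the share was 10.4% ± 0.88 in untreated epididymis and 24.05% ± 1.95 in untreated testis (n = 4 each), and the libraries of the tissues did not overlap.

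**Figure D2:**
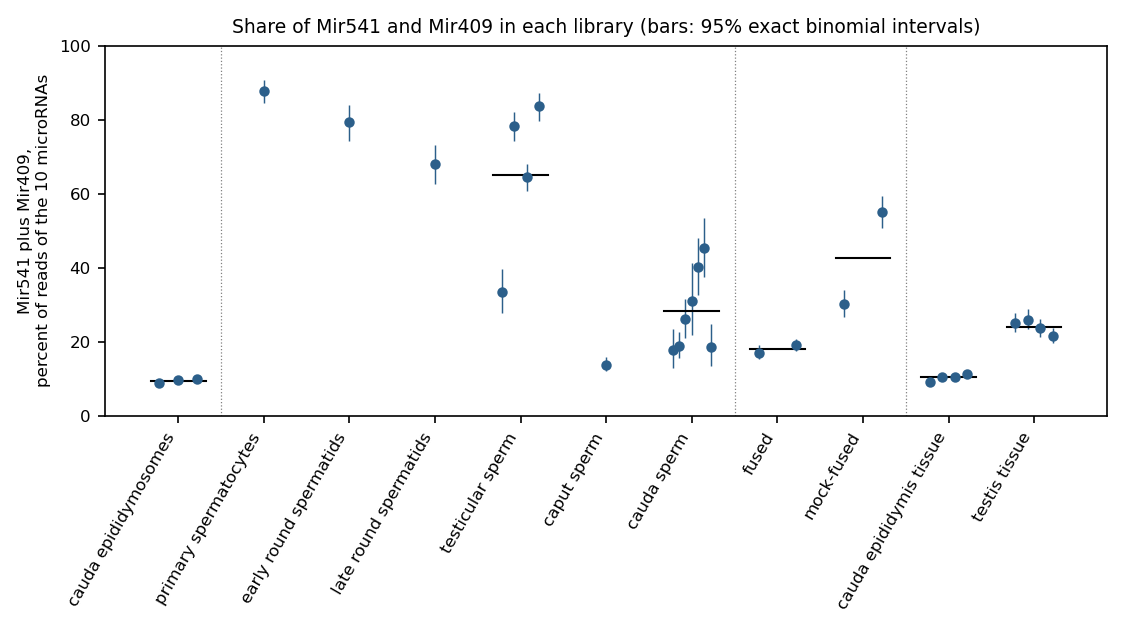
Mir541 plus Mir409 as a percentage of the reads of the 10 microRNAs in each library, with exact binomial 95% intervals as bars and group means as lines. Germ cell libraries lie between 68.1% and 87.7%, and epididymosomes and untreated epididymis near 10%.

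Among 30 microRNAs of the domain at or above 1 CPM in both epididymosomes and epididymis, the mean of the 3 germ cell libraries was 77.7% of the epididymosome level for Mir409, 20.8% for Mir541, 15.4% for Mir369 and 5.66% for Mir410. These 4 genes lie close together, a grouping chosen after the values were seen. The other 26 were between 0 and 5.75%, with a median of 0.934% and 25 of them below Mir410. Rows left out by the limit of 1 CPM ranged from 0 (such as Mir770) to 72.0% (Mir412, between Mir409 and Mir369). Among them Mir1197 had 38.0% and Mir495 25.0%, so the split depends on that limit. Testicular sperm stood at 9.69% to 65.3% of the epididymosome level for the 4 genes and at 0 to 19.1% for the other 26. Of these 26, 19 were below the lowest of the 4, so the ranges overlapped. The gene farthest along the chromosome, Mir1247, had no read in the 3 germ cell libraries and was at 43.7 CPM in epididymosomes, so position along the domain as a whole did not order the values. Untreated testis gave 6.88% to 26.8% of the epididymis level for the same 4 genes and 0.568% (Mir1247) to 8.76% for the other 26, so that the ranges overlapped there. Mir410 and Mir369, neither of them among the 10, were at 2.93, 2.76 and 2.59 CPM and at 0.856, 0.863 and 1.70 CPM in the 3 germ cell libraries. No test was made, since the genes share their libraries.

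**Figure D3:**
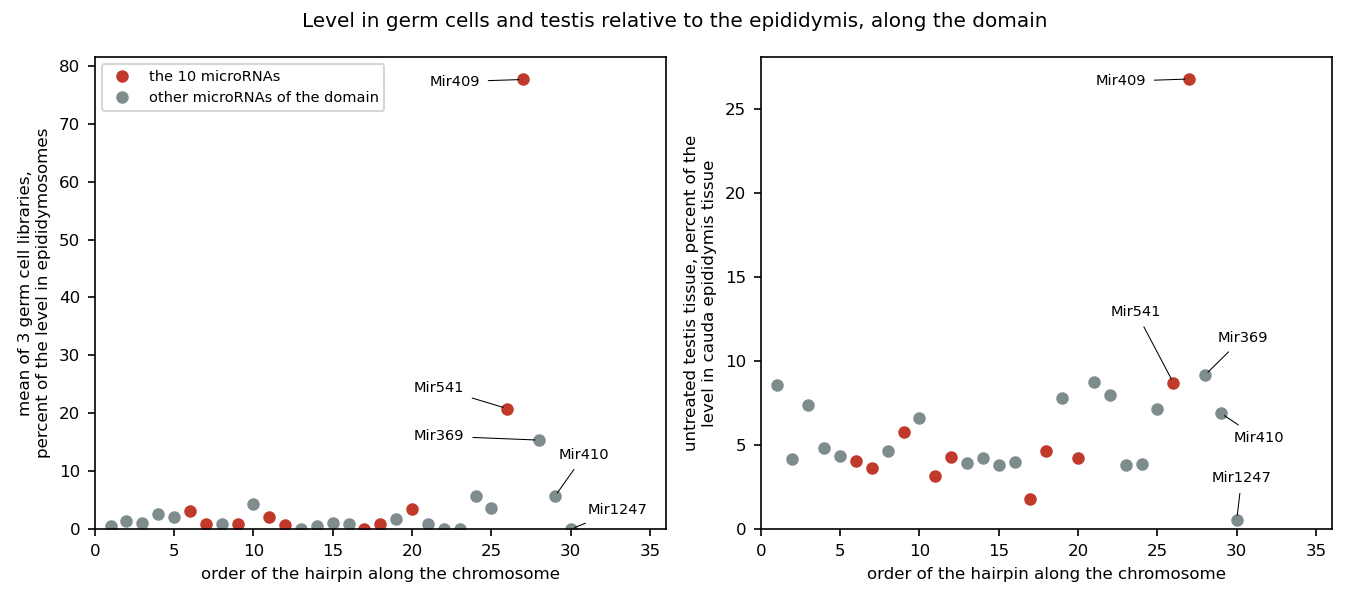
Level in germ cells as a percentage of epididymosomes (left) and level in testis as a percentage of epididymis (right) for 30 microRNAs of the domain, in their order along the chromosome (equal steps, not to distance). The highest points on the left are Mir409 at 77.7% and Mir541 at 20.8%, Mir409 is also the highest on the right at 26.8%, and Mir1247, the last gene, is at 0 on the left and 0.568% on the right.

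All 10 microRNAs had higher CPM in cauda epididymosomes than in cauda sperm, and the folds were smallest for Mir127, Mir409 and Mir541. Mir411 was at 287, 294 and 278 CPM in epididymosomes, against a median of 3.36 CPM in cauda sperm. Mir136 was at 49.2, 49.0 and 48.8 CPM in epididymosomes, against 0.0713 to 1.4995 CPM in cauda sperm with a median of 0.480 CPM. In CPM every epididymosome library was above every cauda sperm library for all 10 genes. The same held for 11.3% of all rows tested and 72.3% of the microRNA rows. The epididymosome libraries held 21.1% to 26.5% microRNA reads, against 0.501% to 2.56% in the cauda sperm libraries. Within microRNA reads alone, Mir127 was lower in every epididymosome library than in every cauda sperm library. On that scale Mir136, Mir411 and Mir300 stayed higher in every epididymosome library, while Mir434, Mir379, Mir376a, Mir382 and Mir409 overlapped. The log2 ratio of the summed members on that scale is given at the end.

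The fold changes of epididymosomes over cauda sperm were 68.1 for Mir136 (log2 6.09 ± 0.46 SE, adjusted p = 4.8e-17, edgeR), 57.5 for Mir411 (log2 5.84 ± 0.53, adjusted p = 5.2e-11), 54.7 for Mir300, 38.2 for Mir376a, 29.7 for Mir379, 24.3 for Mir434, 16.5 for Mir382, 10.2 for Mir541, 7.04 for Mir409 and 4.63 for Mir127 (log2 2.21 ± 0.45, adjusted p = 6.5e-05). In this comparison 28.8% of all rows were called in either direction and 64.6% of the microRNA rows were higher. The titles of the epididymosome libraries hold a number that no cauda sperm title has, so that number and the kind of sample cannot be told apart. The median log2 fold change was 4.75 for the 10, 3.93 for 28 other microRNAs of the domain (25 higher and 1 lower) and 2.36 for all microRNA rows. The epithelial microRNAs summed to 22678 CPM (19351 to 27945) in epididymosomes against 254 CPM (59.8 to 741) in cauda sperm, and the smooth muscle microRNAs Mir143 and Mir145 to 45367 CPM against 363 CPM. The part of smooth muscle or epithelial RNA in the result was not tested. Relative log expression scaling gave 1143 rows higher and 2129 lower, against 1697 and 1921.

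Cauda sperm washed with detergent held fewer reads of Mir136, Mir379, Mir411 and Mir300 after the mid and the high wash. Mir411 was at 87.03, 62.8, 73.1, 87.5 and 85.1 CPM in unwashed sperm of sets 1 to 5, at 26.004, 18.8, 21.9, 28.5 and 34.3 CPM after the low wash, at 22.6, 13.9, 10.9, 15.5 and 15.5 CPM after the mid wash and at 20.2, 15.4, 9.40, 21.3 and 25.2 CPM after the high wash. Mir541 was at 52.4, 39.6, 44.1, 46.2 and 67.9 CPM in unwashed sperm, at 19.4, 20.7, 16.5, 24.7 and 35.3 CPM after the low wash, at 20.5, 15.9, 11.8, 29.8 and 28.5 CPM after the mid wash and at 26.03, 15.2, 11.5, 25.6 and 43.7 CPM after the high wash. Every washed library was below every unwashed one for Mir411, while for Mir541 the high wash library of set 5 reached into the unwashed range. Mir409 was at 0.810 to 5.99 CPM over the washed libraries against 4.84 to 6.92 CPM unwashed, and overlapped after the low and the high wash. Mir376a, at 0.437 to 0.567 CPM on average after washing against 0.518 CPM unwashed, and Mir382 did not pass the filter on low counts. All 5 washed libraries were below all unwashed ones for 4 of the 8 members tested after the low wash, where 1.22% of all rows and 32% of the microRNA rows did the same. After the mid wash this held for 6 members, 1.63% of all rows and 42.5% of the microRNA rows, and after the high wash for 3 members (Mir379 overlapped), 1.29% of all rows and 35.4% of the microRNA rows.

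By edgeR without regard to the set, 0 of 8 members tested were called after the low wash, where 0.0713% of all rows and 2.17% of the microRNA rows were called. At an unadjusted p under 0.05 there were 5, and DESeq2 called 1. After the mid wash 4 were called, all lower, where 2.78% of all rows were called and 37.3% of the microRNA rows were lower. After the high wash the same 4 were called, where the values were 1.56% and 26.4%. These were Mir136 with log2 changes of -2.10 (mid) and -1.73 (high), Mir379 with -3.08 and -2.67, Mir411 with -2.73 and -2.39, and Mir300 with -2.53 and -2.28, with adjusted p between 0.00057 and 0.0085. Of 13 other microRNAs of the domain tested, 0, 6 and 5 were called after the low, mid and high wash. Libraries of the same set deviated together (r between 0.152 and 0.495 over all pairs), and with the set as a block 7 members were lower after the low wash and 8 after the mid and the high wash. The blocked log2 changes were -1.09 (low), -1.70 (mid) and -1.48 (high) for Mir541, with adjusted p of 0.012, 4.7e-05 and 0.00027. The blocked changes of Mir409 were -1.58 after the mid wash and -1.27 after the high wash, with adjusted p of 4.6e-05 and 0.00053.

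The share of Mir541 and Mir409 among the member reads was 25.0% in unwashed sperm, 30.8% after the low wash, 35.4% after the mid wash and 36.2% after the high wash. The summed epithelial microRNAs were at 678 to 1247 CPM on average in the washed groups against 7051 CPM unwashed, and the 5 blood cell microRNAs at 167 to 192 CPM against 2158 CPM; their part in the result was not tested. MicroRNA reads made up 2.31% to 7.44% of the washed libraries and 12.4% to 18.5% of the unwashed ones. As a share of microRNA reads alone, the summed members differed from unwashed sperm by 0.168 (low), -0.0399 (mid) and -0.0172 (high) on the log2 scale.

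**Figure D4:**
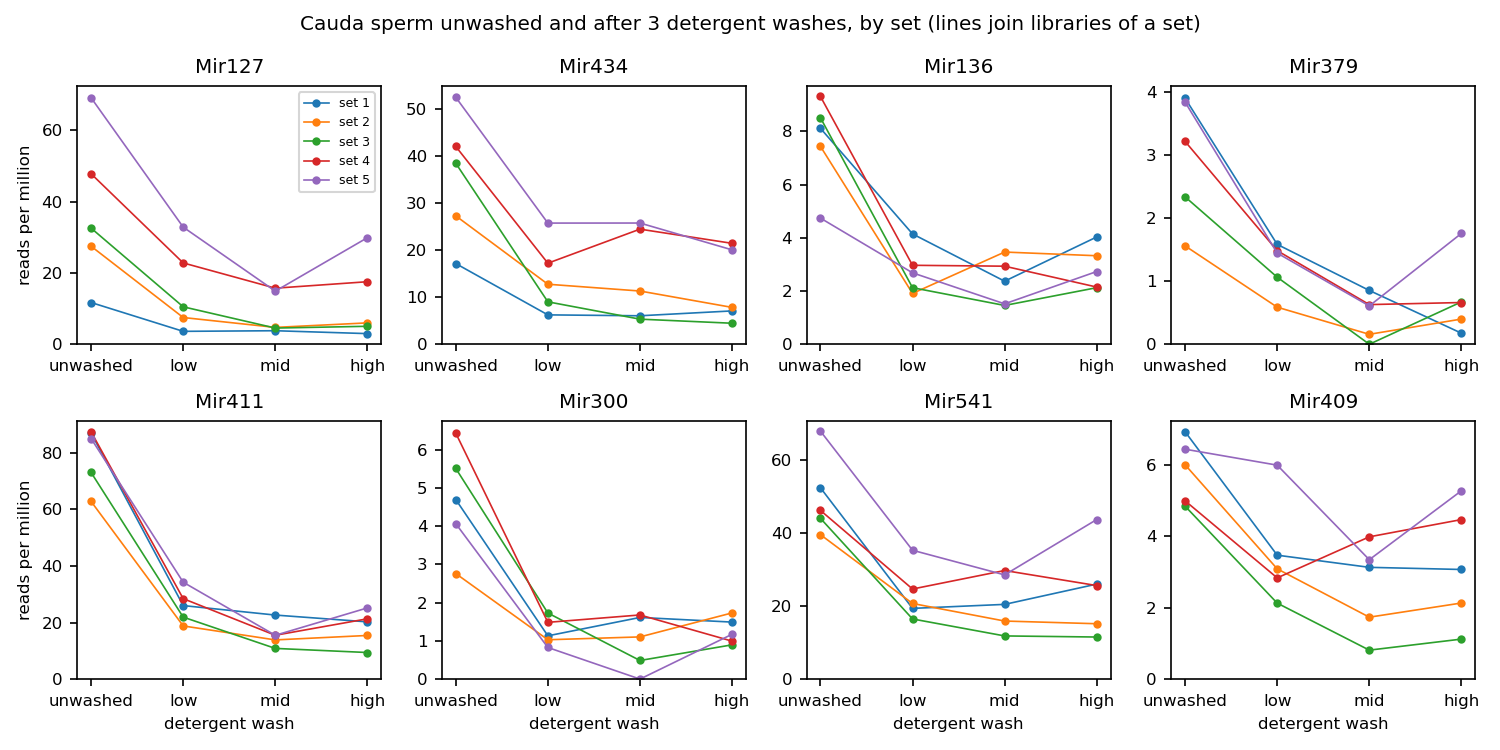
Level in CPM in cauda sperm that were unwashed or given a low, mid or high detergent wash, for the 8 microRNAs that passed the filter on low counts; each line joins the 4 libraries of a set. Mir411 lies at 62.8 to 87.5 CPM unwashed and at 9.40 to 34.3 CPM after any wash.

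Heads of cauda sperm held fewer reads of most of these microRNAs than tails. Mir409 was at 1.30, 1.31 and 0.789 CPM in heads and at 5.48, 3.48, 6.17 and 9.96 CPM in tails, and Mir411 at 6.66, 5.24 and 3.29 CPM in heads and at 9.31, 10.4, 47.4 and 13.9 CPM in tails. For these 2 genes heads were below tails in every library. The share of all rows that did the same was not computed, so this is a description only. MicroRNA reads made up 2.03% to 3.70% of the cauda head libraries against 7.33% to 9.28% of the cauda tail libraries. Mir541, at 28.9, 12.8 and 9.07 CPM in heads and 43.4, 22.6, 57.6 and 58.4 CPM in tails, overlapped.

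In cauda heads against tails, 6 of 9 members tested were lower, where 36.5% of all rows were called and 37.9% of the microRNA rows were lower. They were Mir409 (log2 -2.21, SE 0.42, adjusted p = 0.00017), Mir411 (-1.92), Mir379 (-3.52), Mir434 (-1.79), Mir541 (-1.32) and Mir300 (-2.06), with adjusted p up to 0.040 by edgeR. The count was 1 with relative log expression scaling, 1 with DESeq2, 0 on the microRNA rows alone and 1 without cauda head replicate 2. Relative log expression scaling turned the split of all calls to 1586 higher and 1113 lower, against 1200 and 2343. In testicular sperm heads against tails 0 of 9 were called at adjusted p under 0.05, where 0% of all rows were called, and 8 of 9 members tested were lower in every head library than in every tail library, as were 17.5% of all rows and 72.1% of the microRNA rows. MicroRNA reads made up 1.21% to 1.90% of these head libraries against 4.03% to 4.50% of the tail libraries. Mir409 there had 1.90, 2.63 and 2.12 CPM in heads and 8.12 and 6.77 CPM in tails. At an unadjusted p under 0.05 there were 2, and DESeq2 called 1.

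Whole cauda sperm of this table held more Mir434 than whole testicular sperm, at 27.7, 18.9, 95.9, 44.5, 150 and 41.4 CPM (median 42.97 CPM) against 9.12 and 11.9 CPM. Mir434 rose by 3.20 on the log2 scale (SE 0.76, adjusted p = 0.0013), Mir379 by 2.19, Mir382 by 1.84 and Mir136 by 1.52, so 4 of 9 members were called, where 45.6% of all rows were called and 42.8% of the microRNA rows were higher. Mir541 (log2 0.46) and Mir409 (log2 -0.10) were not called, with adjusted p of 0.53 and 0.86. Without testicular whole sperm replicate 2 the count was 1, on the microRNA rows alone it was 2 (1 higher and 1 lower), and with the 2 detergent-washed cauda libraries alone, which match the wash of the testicular sperm, it was 2 (Mir434 at 2.93 and Mir136 at 1.79). Mir136 lost its call without testicular whole sperm replicate 2 or cauda whole sperm replicate 5 or 6. Mir3071, which cannot be told apart from Mir136 here, was not called (log2 1.22, adjusted p = 0.10 by edgeR). Relative log expression scaling gave 2261 rows higher and 2136 lower, against 1771 and 2659.

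Testicular sperm fused with caput epididymosomes held more Mir127, Mir434 and Mir136 than mock-fused sperm. Mir127 was at 8.36 and 12.7 CPM in fused sperm and at 3.29 and 1.56 CPM in mock-fused sperm. Mir434 was at 34.1 and 38.3 CPM in fused sperm and at 11.4 and 8.01 CPM in mock-fused sperm. Mir136 was at 7.37 and 6.69 CPM in fused sperm and at 2.78 and 1.09 CPM in mock-fused sperm. Both fused libraries were above both mock libraries for 7 of 8 members tested, Mir411 and Mir541 included and Mir409 not, as for 34.2% of all rows and 29.3% of the microRNA rows.

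Their log2 fold changes of fused over mock were 2.05 for Mir127 (SE 0.50, adjusted p = 0.027), 1.81 for Mir434 (SE 0.48, adjusted p = 0.040) and 1.82 for Mir136 (SE 0.50, adjusted p = 0.048), by edgeR. That is 3 of 8 members tested, where 6.88% of all rows were called and 10.6% of the microRNA rows were higher. Without mock replicate 2 the count was 0. Mir3071, which cannot be told apart from Mir136 here, was not called (log2 1.41, SE 0.60, adjusted p = 0.21 by edgeR). Mir411 was at 58.1 and 56.4 CPM in fused sperm and at 26.4 and 6.45 CPM in mock-fused sperm, with an adjusted p of 0.10. Mir541 was at 19.4 and 21.6 CPM in fused sperm and at 16.8 and 16.1 CPM in mock-fused sperm (log2 0.22, SE 0.46), and Mir409 was at 4.13 and 6.38 CPM in fused sperm and at 3.40 and 6.53 CPM in mock-fused sperm (log2 -0.05, SE 0.49).

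Mir410 and Mir369, which lie close to Mir409, had fused over mock values of -0.08 and -0.60 (log2, adjusted p of 0.94 and 0.54). Of 8 other microRNAs of the domain tested, 2 were higher, Mir381 with 2.77 and Mir485 with 3.84. The share of Mir541 and Mir409 among member reads was 17.05% and 19.1% in fused sperm and 30.2% and 55.0% in mock-fused sperm. The epithelial microRNAs summed to 3909 and 3950.1 CPM in fused sperm and to 370 and 136 CPM in mock-fused sperm. The blood cell microRNAs were at 10259 CPM on average in fused and 19681 CPM in mock-fused sperm, and the part of other cells' RNA was not tested. The mock libraries are also part of the maturation table, where they count as 1 of the 8 groups of the likeness given at the end.

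The enzymes change which RNA ends or bases can be cloned: the kinase adds a 5′ phosphate and removes 3′ phosphates, its phosphatase-dead form only does the first, AlkB removes base methyl groups, and RppH turns capped or triphosphate 5′ ends into monophosphates. A mature microRNA has a 5′ monophosphate and a 3′ hydroxyl and can be cloned without them. In epididymis, Mir411 was at 335, 230, 298 and 287 CPM after the kinase, 20.03, 9.39, 35.4 and 27.99 CPM after the phosphatase-dead kinase, 192, 139, 135 and 154 CPM after AlkB and 47.8, 35.004, 1219.7 and 41.01 CPM after RppH, against 666, 805, 897 and 921 CPM untreated. Treated libraries were below all untreated ones except RppH replicate 3, which stood above them. That library was also the highest of its group for Mir127, Mir136 and Mir434.

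After the kinase 9 of 10 members were lower in epididymis, where 68.1% of all rows were called and 83.2% of the microRNA rows were lower, with log2 values between -2.87 for Mir136 and -1.24 for Mir434. Mir376a had -0.70 and was not called. The count was 3 or 4 when any library other than untreated replicate 1 was left out. After the phosphatase-dead kinase 10 of 10 were lower, where the values were 88% and 94.8%, with log2 values between -8.60 for Mir136 and -1.25 for Mir379. For Mir379 the CPM were 15.02, 6.78, 37.3 and 27.1 after the phosphatase-dead kinase against 8.998, 17.5, 10.3 and 14.3 untreated, so the direction turns when only the library total is used, and on the microRNA rows alone the log2 value was 4.19. The median log2 change of all microRNA rows was -2.23 after the kinase and -6.06 after its phosphatase-dead form, against -1.89 and -6.02 for the 10.

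AlkB gave 4 lower members of 10 in epididymis, where 34.8% of all rows were called and 57.4% of the microRNA rows were lower. They were Mir136 (log2 -3.04, SE 0.43, adjusted p = 8.7e-08), Mir376a (-2.69), Mir300 (-2.39) and Mir411 (-1.47). On the microRNA rows alone 3 members were higher and 1 was lower after AlkB. RppH gave 4 lower and 1 higher, where 37.5% of all rows were called, and 52.9% of the microRNA rows were lower and 3.44% higher. The lower ones were Mir136 (-3.72), Mir300 (-2.40), Mir411 (-1.56) and Mir434 (-1.34), and Mir379 was higher (1.87, SE 0.45, adjusted p = 0.00073), at 21.03, 24.5, 23.02 and 27.8 CPM against 8.998, 17.5, 10.3 and 14.3 CPM untreated. The RppH count was 6 without RppH replicate 3, 2 without untreated replicate 3 and 3 without untreated replicate 2 or 4 or RppH replicate 2 or 4. Relative log expression scaling gave 203 rows higher and 198 lower for AlkB, against 114 and 267, and 214 higher and 305 lower for RppH, against 41 and 369.

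In testis the kinase gave no call among 8 members tested (0 at an unadjusted p under 0.05, and 0 by DESeq2), where 10.8% of all rows and 5.56% of the microRNA rows were called. Mir127 was at 9.10, 7.82, 9.28 and 35.1 CPM after the kinase and at 4.64, 4.73, 6.29 and 5.58 CPM untreated, above in every library, with an adjusted p of 0.28. The phosphatase-dead kinase gave 6 lower members (Mir136, Mir300, Mir411, Mir409, Mir434 and Mir541, log2 -3.35 to -1.49) and Mir379 higher (2.96), where 41.4% of all rows were called, and 60.4% of the microRNA rows were lower and 12.2% higher. These changes rest on few reads, since all members together had 32, 30, 35 and 81 reads in the phosphatase-dead kinase libraries. Without replicate 1 of the phosphatase-dead kinase the count was 4, and Mir379, at 5.33, 0.294, 0.283 and 0.995 CPM against 0.136, 0.0815, 0.622 and 0.787 CPM untreated, was not called, nor was it without untreated replicate 1 or 2.

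Mir541 was higher in testis after AlkB and after RppH. It was at 37.2, 45.4, 53.9 and 50.2 CPM after AlkB and at 67.98, 47.4, 76.1 and 86.97 CPM after RppH, against 11.4, 15.3, 15.9 and 18.7 CPM untreated, with no overlap. Its log2 changes were 1.76 for AlkB (SE 0.45, adjusted p = 0.012) and 2.32 for RppH (SE 0.47, adjusted p = 0.0021). Mir136 was lower after both (-2.25 and -2.85). After AlkB these 2 were the only calls among 8 members, where 11.2% of all rows were called and 26.4% of the microRNA rows were lower and 5.21% higher, and Mir136 lost its call without AlkB replicate 1, 2 or 3 or untreated replicate 3 or 4. After RppH Mir300 was also lower (-4.66) and Mir379 higher (3.28), where 18.8% of all rows were called and 21.5% of the microRNA rows were lower and 12.2% higher. Mir379 lost this call without untreated replicate 1, 2 or 4 or RppH replicate 3 or 4. RppH replicate 2 of testis held 8034 CPM of the epithelial microRNAs, against 36.96 to 148 CPM in untreated testis, and was the highest of its group for Mir127 and Mir434.

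**Figure D5:**
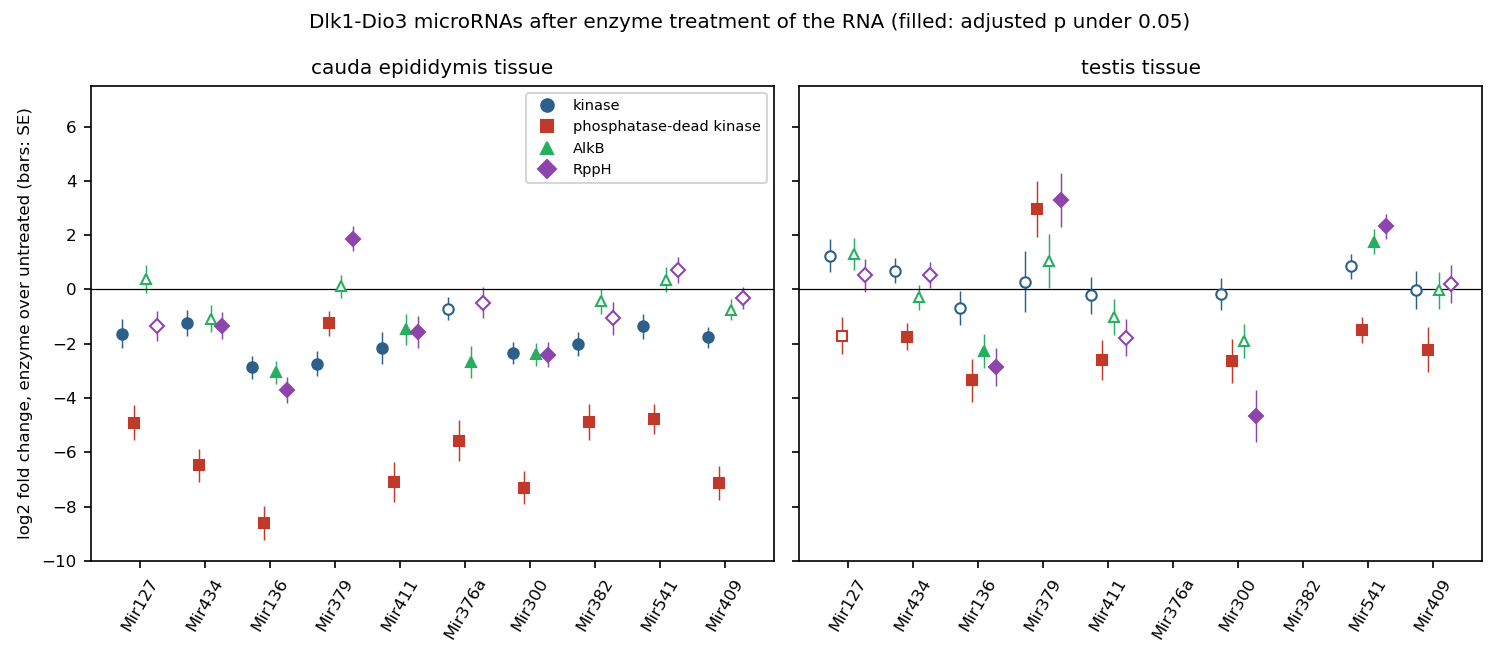
Log2 fold change of each microRNA after an enzyme treatment over untreated RNA in epididymis (left) and testis (right), with the standard error as a bar and filled symbols where the adjusted p was under 0.05. The phosphatase-dead kinase gives the lowest values in epididymis, between -8.60 and -1.25, and Mir541 after AlkB (1.76) and RppH (2.32) stands above 0 in testis.

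In sperm RNA the 4 members that passed the filter were lower after the kinase, in the cauda and in the caput. These changes rest on few reads. All members together had 15, 13 and 12 reads after the kinase in cauda sperm, against 183, 190 and 172 without it. In caput sperm they had 3, 4 and 17 reads after the kinase, against 106, 36 and 136 without it. Mir411 was at 3.68, 5.28 and 6.65 CPM after the kinase against 25.7, 28.9 and 28.2 CPM without it in cauda sperm, and at 0, 5.08 and 12.8 CPM after the kinase against 51.2, 63.96 and 61.5 CPM without it in caput sperm. The log2 changes in cauda sperm were -3.45 for Mir434, -3.17 for Mir541, -1.87 for Mir411 and -1.70 for Mir127, where 61.5% of all rows were called and 87.4% of the microRNA rows were lower. In caput sperm they were -3.20 for Mir411, -2.58 for Mir434, -2.25 for Mir127 and -1.98 for Mir541, where the values were 39.8% and 79.2%. Without caput kinase replicate 2, or with DESeq2, 2 were called in caput sperm.

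Relative log expression scaling gave 378 rows higher and 316 lower in caput sperm, against 190 and 403. On the microRNA rows alone no member was called in either kind of sperm, and Mir411 turned to 0.49 in cauda sperm. Cauda sperm without kinase set against caput sperm without kinase gave 1 call of 4, Mir127 at 4.74, 2.80 and 7.68 CPM in cauda sperm and 13.2, 31.98 and 18.3 CPM in caput sperm (log2 -1.22, adjusted p = 0.0498), where 51.2% of all rows were called and 35.3% of the microRNA rows were lower. The call was lost when any single library was left out and in every other fit made.

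4-TU enters new RNA in cells that can take it up, and its uracils are then read as T-to-C changes. Each group had 1 library, so no test was made. Among 9 of the 10 arms with 100 or more reads in both caput libraries, 6 had a higher T-to-C rate with 4-TU, and the medians were 0.0633% with 4-TU and 0.0295% in the control. Over all arms with that many reads 84.1% were higher (260 of 309), with medians of 0.129% and 0.0599%. The miR-136-5p arm was at 0.0731% with 4-TU (3495 reads) and 0.0318% in the control (5247 reads), and miR-127-3p at 0.0802% (4156 reads) and 0.0676% (6654 reads). In the other direction, miR-376a-3p was at 0.0421% with 4-TU (1584 reads) and 0.308% in the control (975 reads). The miR-382-5p and miR-541-5p arms were also lower with 4-TU. The mean of the 11 other substitutions for miR-136-5p was 0.0835% and 0.0664%.

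In cauda sperm 2 arms had enough reads. The rate of miR-127-3p was 0.0955% with 4-TU and 0.0823% in the control, and miR-379-5p was listed at 0 and 0.0784%. In testis 2 of 4 arms were higher with 4-TU. Of all arms 54.7% were higher in cauda sperm and 49.6% in testis. The file gives reads per arm but not per base, so no interval is given for these rates.

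The long RNAs of the domain gave few short reads. Meg3 averaged 10.3 to 14.2 CPM in the 4 groups of the wash table and at most 1.42 CPM in the other tables that list it. Rian averaged 2.96 to 4.80 CPM in the wash table. Mirg, in which Mir382, Mir541 and Mir409 lie, averaged at most 0.239 CPM in any group, and Rtl1 and Dlk1 at most 0.966 CPM. In the wash table Begain averaged 1.29 to 5.73 CPM, Dio3os 1.13 to 1.90 CPM and Dio3 0.724 to 1.11 CPM. By edgeR Begain was higher in cauda heads than in tails (log2 3.82, adjusted p = 1.5e-05). It was lower in epididymosomes than in cauda sperm (log2 -8.65, adjusted p = 5.3e-09). Meg3 was called higher in cauda than in testicular sperm, in the maturation series (log2 6.55) and in whole sperm (log2 2.97).

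Among 192 other microRNAs with a group mean of 20 CPM or more, the levels over the 8 groups of the maturation table were most like the sum of the 10 for Mir126a (Pearson r = 0.995 on log2 CPM + 1), Mir126b (0.989), Mir3074-2 (0.988), Mir24-2 (0.979) and Mir29c (0.976). Each member set against the sum of the other 9 gave r between 0.88 and 0.99 for 7 genes, 0.83 for Mir127, 0.79 for Mir541 and 0.10 for Mir409. In the table of heads, tails and whole sperm the same measure was highest for Mir541 (0.96), was 0.76 for Mir409 and was lowest for Mir382 (0.69). In that table (6 groups, 170 candidates) the closest were Mir199b (0.999), Mir199a-2 (0.998), Mir199a-1 (0.997), Mir125b-1 (0.996) and Mir30a (0.995). These correlations run over groups that differ in their microRNA share and in depth, and they are given as a description.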

How the data were processed

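The authors deposited 7 tables of reads per gene for 114 small RNA libraries and substitution tables for 6 libraries of the 4-thiouracil experiment. Some of the deposited tables hold whole read counts per gene, and others hold expected counts (estimated counts that need not be whole), which were rounded here. The deposited substitution tables give the percent of bases of each kind read as another base, for each microRNA arm. The build is mm10 per the submitters' processing notes, and the aligner and counter are not given in the sources used here. Of their columns 4 were not used, and 3 rRNA rows and 27 gene rows whose names had become dates (at most 0.0282% of a library) were left out.

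Libraries were grouped by the labels. Each of the 21 comparisons was fitted over all rows with edgeR 4.0.16 (R 4.3.3; TMM scaling, filterByExpr, robust quasi-likelihood F test; the wash of heads and tails and the acid or base mark of tissue libraries as a term). A row was called where its p-value, adjusted by the Benjamini-Hochberg method, was under 0.05. The steps were tested on simulated data. CPM are divided by the library total. Alternatives were relative log expression scaling, the microRNA rows alone, no filter, DESeq2 1.42.0, the replicate or set as a block, and each library left out. Totals between 156347 and 56011165 reads set the precision, and binomial intervals and the floor of 3 reads cover counting error only. Replicate numbers were taken to pair samples where every same-numbered pair had a correlation over 0.1. This held for the washes, the caput sperm kinase, the epididymis kinase, phosphatase-dead kinase and AlkB, and testis AlkB and RppH. The main fits held no term for this pairing, so their adjusted p-values are unpaired, and the block was used only as an alternative. The members and lists were chosen with earlier results of these data known. Named genes were the 10 members, with other genes by their likeness in level to the members' sum.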

Additional observations from a re-analysis of the deposited data

Results flagged for a closer look

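Over 18 groups of libraries, 109 pairs of a gene (or the sum) and a group were checked, and in 12 of them 1 library stood far from the others. The rule flags about 1 in 20 groups by chance, but the pairs share their libraries: 7 libraries gave the 12, and RppH replicate 3 of epididymis alone gave 5. RppH replicate 3 of epididymis held 167.4 CPM of Mir127 (nearest other library 14.002), 21.98 CPM of Mir136 (1.78), 1219.7 CPM of Mir411 (47.8), 466.7 CPM of Mir434 (110.9) and 2259 CPM of the summed members (341). In testis, kinase replicate 4 held 35.1 CPM of Mir127 (nearest 9.28), and RppH replicate 2, a library of 484914 reads, held 74.2 CPM of Mir127 (5.75) and 80.4 CPM of Mir434 (31.3). Replicate 4 of the phosphatase-dead kinase in testis held 26.9 CPM of the summed members (9.91). Cauda sperm tail replicate 3 held 47.4 CPM of Mir411 (13.9), cauda whole sperm replicate 5 held 11.2 CPM of Mir409 (5.05), and untreated epididymis replicate 2 held 31.3 CPM of Mir409 (24.1).

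Among 39 pairs of effects, Mir127 after the kinase moved in opposite directions in every library of the 2 tissues, with a log2 ratio of means of -0.97 in epididymis and 1.53 in testis. This difference was not tested. Without kinase replicate 4 of testis, a library of 228043 reads, the testis value was 0.72, and the fitted testis change with all libraries had an adjusted p of 0.28 by edgeR. On the microRNA rows alone the epididymis change was 0.38 and the testis change 0.84, so the directions were no longer opposite.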

How the results depend on the processing

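The scale mattered most. As a share of microRNA reads alone, the log2 ratio of the summed members was 0.168, -0.0399 and -0.0172 after the low, mid and high wash, -0.0764 and 0.0821 for heads against tails of cauda and testicular sperm, -0.469 for whole cauda against testicular sperm, -0.379 and -0.0321 for the kinase in cauda and caput sperm, 0.236 for cauda against caput sperm, 0.403 and -2.92 for the kinase and its phosphatase-dead form in epididymis, -1.25, -0.653 and -0.655 for the phosphatase-dead kinase, AlkB and RppH in testis, 0.972 for epididymis against testis, 1.71 for maturation cauda against testicular sperm and 0.826 for epididymosomes. On the microRNA rows alone the members called numbered 1, 2 and 1 after the low, mid and high wash, 0 for cauda heads, 2 for whole sperm, 0 for both sperm kinase comparisons and for cauda against caput sperm, 3 and 5 for the kinase and its phosphatase-dead form in epididymis, 1 for that form in testis and 5 for maturation. There the sign turned for Mir411 (0.49) after the cauda sperm kinase, for Mir127 (0.38), Mir434 (0.72), Mir541 (0.61), Mir409 (0.15) and Mir376a (1.27) after the epididymis kinase, for Mir127 (0.48), Mir379 (4.19), Mir541 (0.66) and Mir382 (0.81) after its phosphatase-dead form, for Mir434 (0.32) and Mir409 (1.26) after epididymis RppH, for Mir541 (0.12) after the testis phosphatase-dead kinase, for Mir409 (-0.20) between the tissues, and for Mir411 (1.86), Mir434 (1.75) and Mir300 (1.52) in maturation. Relative log expression scaling gave 1 for cauda heads and 0 for cauda against caput sperm. DESeq2 gave 1 for the low wash, for cauda heads and for testicular heads, 2 for the caput kinase and 0 for cauda against caput sperm, which was also 0 without the filter. With the replicate block the counts were 7, 8 and 8 for the washes, 6 for testicular heads, 0 for cauda against caput sperm and 5 for fused sperm, and in testicular heads and fused sperm the libraries share only a number. The detergent-washed libraries alone gave 2 for whole sperm. Leaving out 1 library gave 0 to 1 for the low wash, 1 to 7 for cauda heads, 1 to 5 for whole sperm, 2 to 4 for the caput kinase, 0 for cauda against caput sperm, 3 to 9 for the epididymis kinase, 2 to 6 for epididymis RppH, 4 to 7 and 1 to 2 for the phosphatase-dead kinase and AlkB in testis and 0 to 3 for fused sperm. The cause was not tested.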
